A study of Mus musculus with 2 samples.

Results

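The 89 mouse genes described here each carried 8 or more open chromatin peaks in cardiac progenitor cells (CPCs). They were chosen by counting the distinct intervals of the deposited peak list for each assigned gene symbol and keeping all intervals of every symbol that reached 8. The rule took 89 of 15351 genes with a peak (0.580%) and 795 of 26232 distinct intervals (3.03%). Peak number therefore chose the genes and is given as a description with no test. The peaks come from ATAC-Seq, which inserts sequencing adapters into accessible DNA with the Tn5 transposase. CPCs were obtained at day 5 of differentiation of E14 Tg(Nkx2–5-EmGFP) mouse embryonic stem cells, which carry a green fluorescent reporter of Nkx2-5, a homeobox gene active early in the heart. The single group held 2 replicate samples of cells at passages 16 to 20, labelled as strain C57BL/6, with no knockdown or other treatment named for either. Both replicates share this reporter line, and Isl1 knockdown cells were not analysed here. The list holds peaks found in both replicates and gives neither a score nor a value for a single replicate, so depth was unknown, replicate error could not be computed and no test between samples was possible. As a check of the labelled cell type, 7 of 10 markers of cardiac progenitors had a peak within 1 kb of the assigned transcription start site (TSS), against 0 of 4 liver markers, 2 of 4 markers of pluripotent cells and 3 of 4 neural markers. A peak at any distance was assigned to 9 of 10 cardiac, 3 of 4 liver, 3 of 4 pluripotency and 4 of 4 neural markers. A peak at a TSS is not a measure of expression, and the part of other cell types in the list was not tested.

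Open chromatin marks DNA that is not tightly wrapped around nucleosomes, such as promoters at the TSS and distal elements, among them enhancers, to which transcription factors bind. Developmental regulators are known for many distal elements spread over long stretches of DNA around them. A peak in such a list is assigned to the gene with the nearest TSS, which need not be the gene that the element controls.

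To show the DNA behind these counts, stretches of peaks are printed from the mm9 assembly on the plus strand, 5′ to 3′, with the deposited distance from the assigned TSS to the peak midpoint in parentheses (negative for upstream). Tead1, which encodes a DNA-binding factor and nuclear partner of the Hippo pathway coactivators, shared the highest number of peaks, and 10 of its 14 peaks held the core TEAD motif GGAATG in the central 300 bp. The capitals mark that motif or its reverse complement.
Tead1 chr7:119739019-119739048 (-83886 bp): ataaatgcttcgCATTCCtcggcttttgcc
Tead1 chr7:119759012-119759041 (-63757 bp): ggcaggcggccaCATTCCtatgggaacctt
Tead1 chr7:119799766-119799795 (-22948 bp): tctggtctcaatGGAATGtgcttatcagtc
Tead1 chr7:119803958-119803987 (-18972 bp): cttcttatctagCATTCCttcccagcccta
Tead1 chr7:119822845-119822874 (3 bp): tggcgttcatttCATTCCtgtcctCATTCC
Tead1 chr7:119863766-119863795 (-39009 bp): cctgttctttctGGAATGtttgctatcctc
Tead1 chr7:119903157-119903186 (344 bp): agtggcctggaaCATTCCtttcagggcctc
Tead1 chr7:119951082-119951111 (48057 bp): ttatgcagcagaCATTCCggtcaattagct
Tead1 chr7:119985590-119985619 (82583 bp): tctcgtgattttCATTCCaagctgaaggta
Tead1 chr7:119998297-119998326 (95392 bp): tcactgctcatgCATTCCctgctgagatgg

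The MEF2 motif, an A/T-rich word recognised by factors of muscle development, was found in 7 of the 647 peaks that lay beyond 10 kb of the assigned TSS. These stretches are shown because it was the only motif of 15 whose share in such peaks was separated from that in the other genes. The capitals mark the match.
Foxp1 chr6:99150726-99150765 (65672 bp): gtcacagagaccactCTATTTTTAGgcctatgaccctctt
Kazn chr4:141722383-141722422 (43774 bp): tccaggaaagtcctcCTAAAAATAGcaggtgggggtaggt
Mir148a chr6:50997556-50997595 (222438 bp): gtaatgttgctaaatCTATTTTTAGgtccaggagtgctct
Podxl chr6:31592632-31592671 (-78652 bp): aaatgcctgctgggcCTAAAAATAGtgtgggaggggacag
Prickle1 chr15:93528851-93528890 (-102606 bp): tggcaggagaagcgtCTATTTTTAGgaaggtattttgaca
Rgs3 chr4:62383220-62383259 (48287 bp): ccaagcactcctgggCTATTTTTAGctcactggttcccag
Tssc1 chr12:29502307-29502346 (65706 bp): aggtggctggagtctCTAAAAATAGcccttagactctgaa

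Isl1 encodes the LIM-homeodomain factor at the centre of the study. The central 300 bp of 2 of its upstream peaks are shown because each held both the TEAD and the TALE motif. In the first, at -133758 bp, the capitals mark in order TEAD, Nkx2-5 and TALE matches. In the second, at -199622 bp, they mark TEAD, TALE, AP-1, GATA, TALE, GATA and TEAD matches, of which the AP-1 and the first GATA match share a base.
Isl1 chr13:117233505-117233804 (-133758 bp): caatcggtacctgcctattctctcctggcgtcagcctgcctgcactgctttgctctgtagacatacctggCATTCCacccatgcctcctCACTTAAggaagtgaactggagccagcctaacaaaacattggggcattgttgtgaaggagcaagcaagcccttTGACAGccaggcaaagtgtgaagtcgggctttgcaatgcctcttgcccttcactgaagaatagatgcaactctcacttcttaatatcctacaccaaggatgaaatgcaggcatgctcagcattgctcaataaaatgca
Isl1 chr13:117299369-117299668 (-199622 bp): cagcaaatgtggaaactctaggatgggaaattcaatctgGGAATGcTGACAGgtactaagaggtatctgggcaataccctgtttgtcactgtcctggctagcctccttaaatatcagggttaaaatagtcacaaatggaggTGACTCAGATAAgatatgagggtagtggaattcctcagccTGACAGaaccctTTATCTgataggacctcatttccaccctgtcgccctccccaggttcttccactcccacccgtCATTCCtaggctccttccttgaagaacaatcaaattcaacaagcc

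Irx3 encodes an Iroquois homeodomain transcription factor. Its most distant downstream peak lay inside an intron of Fto, a neighbouring gene for an RNA demethylase, and its central 300 bp are shown as an example of a peak assigned across another gene. The capitals mark in order an E-box CATCTG, an SP/KLF, a TEAD and a SOX match.
Irx3 chr8:94100536-94100835 (224868 bp): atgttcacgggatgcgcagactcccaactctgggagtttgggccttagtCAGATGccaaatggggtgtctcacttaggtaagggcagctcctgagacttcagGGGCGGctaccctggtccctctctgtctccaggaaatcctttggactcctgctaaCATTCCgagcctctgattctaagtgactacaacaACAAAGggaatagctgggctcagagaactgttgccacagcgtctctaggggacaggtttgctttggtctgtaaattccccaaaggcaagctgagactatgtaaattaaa

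Among the 89 genes, 42 had 8 peaks, 28 had 9 and 19 had 10 or more, and these 19 held 207 of the 795 peaks. Rgs3 and Tead1 had 14 peaks each, Med13l and Rnf220 13, and 9430078K24Rik, Ntm and Sertad2 11. The 12 genes with 10 peaks were Btbd11, Ccnl1, Hs3st3b1, Irx3, Nrxn3, Pard3, Rps24, Rybp, Sik1, Ywhaz, Zfp423 and Zfp608. Just outside the rule were 61 genes with 7 peaks. The median number of peaks beyond 10 kb was 6.5 in the 42 genes with 8 peaks and 6 in the 61 genes with 7, and 34 of 42 (81.0%) against 46 of 61 (75.4%) had a peak within 1 kb of the TSS. A peak beyond 100 kb was found in 32 of 42 genes with 8 peaks (76.2%, 95% Wilson interval 61.5 to 86.5%) and 34 of 61 with 7 (55.7%, 43.3 to 67.5%). The median gene length was 68.9 kb (95% confidence interval of the median 38.9 to 114 kb) with 8 peaks and 116 kb (55.1 to 192 kb) with 7, with overlapping intervals. All 89 genes lay on the 19 autosomes, with 12 on chromosome 4, 8 each on chromosomes 11 and 12, and none on X or Y. Of all 15351 genes with a peak, 999 lay on chromosome 4, 1232 on 11, 570 on 12, 478 on X and 2 on Y. The spread over chromosomes was not tested.

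**Figure D1:**
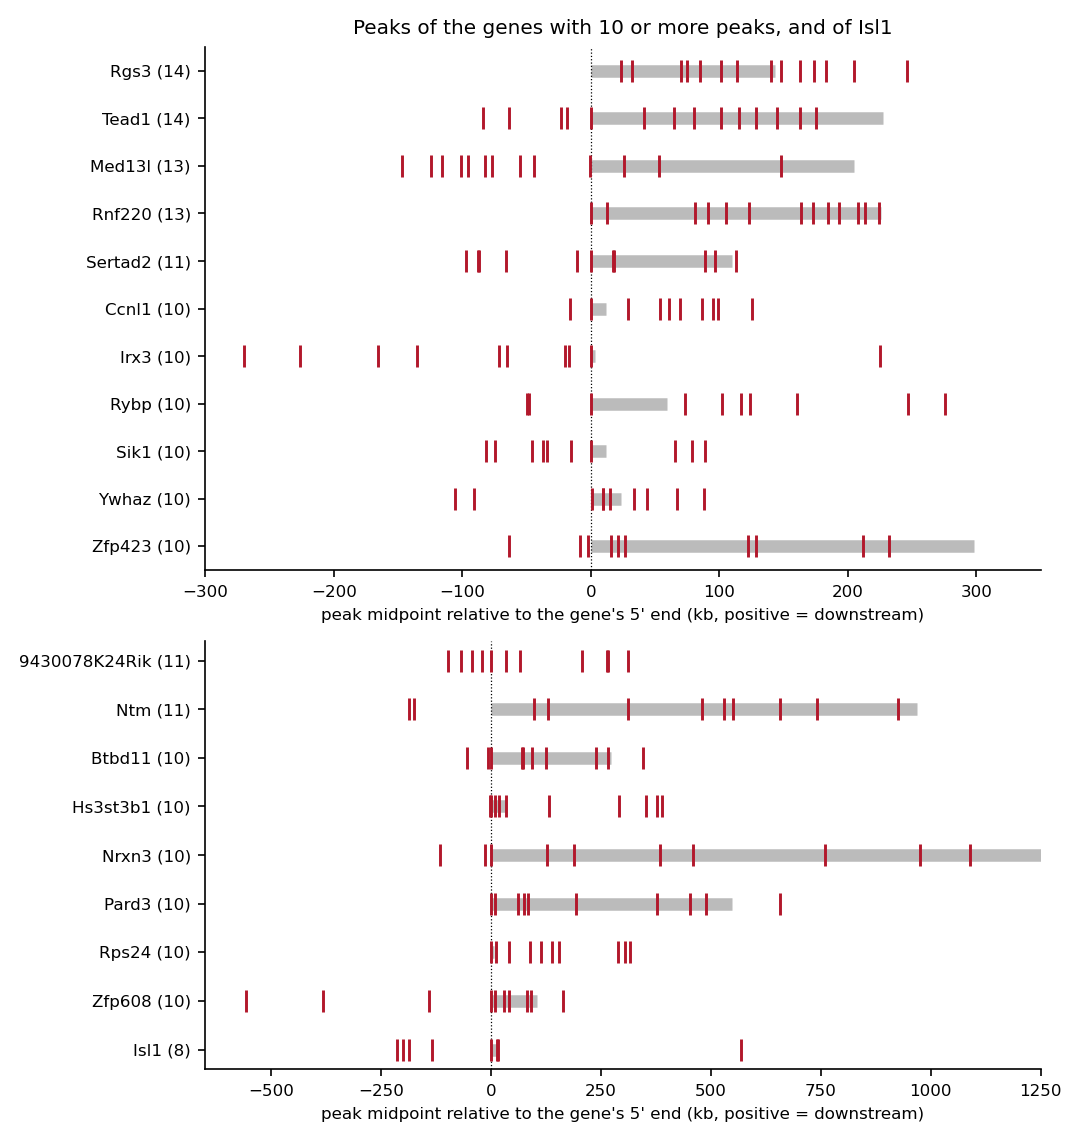
Positions of the peak midpoints of the 19 genes with 10 or more peaks and of Isl1 (number of peaks in parentheses), in kb relative to the 5′ end of the gene (dotted line, positive values downstream), with the gene body as a grey bar. Each red tick is 1 peak, and the 2 panels differ in scale. The body of 9430078K24Rik had no match in the annotation, so its zero is the TSS behind its deposited distances. All 13 peaks of Rnf220 lay inside its body, whereas 10 of 13 peaks of Med13l lay upstream of its body.

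DNA-binding transcription factors made up 13 of the 89 genes, with 118 peaks. At Tead1 the 14 peaks spanned 260 kb (chr7:119738444-119998710). Of these, 10 lay inside its 227 kb body and 4 lay upstream of it, at -83886, -63757, -22948 and -18972 bp. The distances at this gene were measured from 2 TSSs, and the peaks at both start sites were 2013 and 766 bp wide.

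Irx3 showed the opposite layout. Its body is 3.13 kb long, and its 10 peaks spanned 496 kb (chr8:94100158-94596476), from -270309 bp to 224868 bp. The peak at the TSS was 2675 bp wide, 8 peaks lay upstream between protein coding genes and 1 in Fto. At Zfp423, a zinc finger factor that binds Smad proteins, 7 of 10 peaks lay in the 298 kb body (chr8:90250668-90547751 for the whole set). No midpoint was within 1 kb of its deposited TSS, but a peak of 3529 bp was centred at -2092 bp.

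The hedgehog effectors Gli3 and Gli2 had 9 and 8 peaks. Those of Gli3 ran from -95464 to 139173 bp, with 4 upstream, 1 of 2125 bp at the TSS and 4 in introns. Those of Gli2 ran from -183380 to 49203 bp, with 5 upstream, 1 at the TSS and 2 in introns. Among forkhead genes, Foxo1 had 9 peaks, of which 5 lay downstream of its TSS beyond 50 kb, up to 195740 bp. Foxp1 had 8 peaks, of which 3 were within 1 kb of an assigned TSS, and the furthest was at 185188 bp.

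Klf4, a zinc finger factor of the pluripotency list, had 8 peaks, with 1 of 1673 bp at the TSS and the furthest at -517661 bp. Pknox2, of the TALE homeobox family, had 8 peaks, 7 of them in introns of its 256 kb body, which holds at least 11 peaks. Casz1 and Tfap2c, a zinc finger factor of heart development and an AP-2 factor, had 9 peaks each. Irf8, an interferon regulatory factor best known in blood cells, had 8, all within 160 kb.

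Isl1 itself had 8 peaks spanning 782 kb. The peak over its TSS was 1261 bp wide, 5 of the 8 lay beyond 100 kb, and 7 lay between protein coding genes. The 2 upstream peaks printed above were picked because their central 300 bp windows held both the TEAD and the TALE motif. Of the 20 cardiac regulators listed for this series, Isl1 was the only gene to reach 8 peaks. Tbx20 had 6, Tbx5 and Hand1 5, Mef2c 4, Nkx2-5, Tbx3, Gata4, Gata5, Gata6 and Hopx 3, Tbx2, Smarcd3, Zfpm2 and Irx4 2, Tbx1, Myocd, Mesp1 and Srf 1, and Hand2 had no assigned peak.

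Transcriptional cofactors and chromatin regulators numbered 11 genes with 102 peaks. Med13l encodes a subunit of the kinase module of Mediator. Of its 13 peaks (chr5:118863342-119158701), 9 lay beyond 10 kb upstream, from -147046 to -43942 bp, 1 was at -674 bp and 3 were in introns. The neighbouring assigned gene on the side of its 3′ end was Tbx3, a T-box factor, whose nearest peak was 905234 bp away.

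Rybp, a subunit of Polycomb repressive complexes, had none of its 10 peaks (chr6:99961579-100287364) inside its 58.9 kb body. Its promoter peak was 2394 bp wide, and its widest peak measured 4085 bp and lay 73057 bp downstream of the TSS. Sertad2, a transcriptional coregulator, had 11 peaks (chr11:20345859-20557157). Of these, 5 were upstream at -97011 to -10766 bp, and peaks of 2075 and 1764 bp marked 2 start sites.

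Other cofactors had 8 or 9 peaks. At Tle3, a Groucho corepressor, the promoter peak was 5952 bp wide, the widest of all 795, and its other 7 peaks were 750 to 1335 bp wide. Gse1 had a promoter peak of 5502 bp, and the widest peak of Cxxc5, a CXXC-type zinc finger protein, was 4147 bp. Maml3, a Notch coactivator, had 9 peaks, 8 of them in introns, and its widest of 3119 bp lay 58895 bp from the TSS. Arid1b, a SWI/SNF subunit, had 8 peaks from -179379 to 195063 bp. Chd7, a chromatin remodeller, and Zmynd8, a reader of histone marks, had 8 and 9.

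Signalling proteins numbered 10 genes with 94 peaks. Rgs3 encodes a GTPase-activating protein for G protein alpha subunits. Its 14 peaks spanned 223 kb (chr4:62243919-62467175). In order, 8 lay in the body and 6 beyond its 3′ end, the furthest at 131853 bp. Only 1 peak, of 974 bp, was within 1 kb of a TSS, and the distances referred to 3 TSSs.

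Sik1, a salt-inducible kinase, had 10 peaks within 171 kb (chr17:31903587-32074631), 6 upstream, 1 of 1737 bp at the TSS and 3 downstream of its 11.5 kb body. Ywhaz, a 14-3-3 adaptor protein, had 10 peaks within 195 kb (chr15:36635614-36830499), 6 of them inside a 50 kb stretch, and its widest of 2878 bp was centred 1179 bp from the TSS. Smad6, an inhibitor of BMP signalling, had 8 peaks. They were all at or downstream of its TSS, up to 125547 bp, and the promoter peak was 3635 bp wide. The peaks of Efnb2, an ephrin ligand, ran the same way to 528694 bp, with 3854 bp at the promoter. Calm2 (calmodulin), Hunk (a kinase), Dok5 (an adaptor of receptor kinases) and Vrk1 (a kinase) had 9 peaks each, and Hpcal1 (a calcium sensor) had 8.

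Genes of the cytoskeleton, cell polarity and control of small GTPases numbered 13, with 113 peaks. Pard3, a polarity scaffold, had 9 of its 10 peaks (chr8:129587204-130244316) in its 548 kb body, with 2290 bp at the promoter and the furthest at 420423 bp. Myo18a, an unconventional myosin, was the most compact of the 89 genes. All 8 of its peaks lay in its body within 53.8 kb (chr11:77576192-77629959), 7 of them inside a 50 kb stretch. Abr, Ank2, Ank3, Frmd4a, Kazn, Tns3 and Trio had 9 peaks each, and Dab2ip, Nav2, Prickle1 and Sept9 had 8. Tns3, a tensin that links actin to integrins and a member of the actin list, had peaks from -97251 to 258780 bp, with none within 1 kb of the deposited TSS. All 9 peaks of Frmd4a lay inside its 596 kb body.

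Cell surface and matrix proteins numbered 8 genes with 70 peaks. Ntm encodes neurotrimin, a cell adhesion molecule of neurons. Its 11 peaks spanned 1114 kb (chr9:28843896-29958067), 9 of them in its body of 968 kb, with none within 1 kb of the deposited TSS. Nrxn3, a neurexin of synapses, had 10 peaks over 1207 kb (chr12:89844167-91051528), and 8 were in its body of 1612 kb. Cntnap2, of the neurexin family too, had 9 over 2269 kb, the widest span of the 89 genes. Ajap1, Col18a1, Nectin1 and Podxl had 8 each. Of the RNA-binding proteins, Celf4 and Rbfox2 had 9 peaks and Rbm20, a splicing regulator of cardiac titin, had 8, of which 5 were in its body.

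Noncoding RNA genes numbered 6, with 53 peaks. At 9430078K24Rik the 11 peaks spanned 412 kb (chr12:80713368-81124883), and 4 of them lay in introns of Rad51l1, a DNA repair gene. All 9 peaks of 0610039H22Rik lay in introns of Msi2, an RNA-binding protein, at chr11:88325691-88493108. The others were 1700030C10Rik with 9 peaks and 1700108F19Rik, Mir148a and Mir1904 with 8. The mature sequences of both microRNA genes (RefSeq, GRCm38.p6) are printed with the seed, bases 2 to 8, in capitals.
mmu-miR-148a-3p: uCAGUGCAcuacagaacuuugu
mmu-miR-148a-5p: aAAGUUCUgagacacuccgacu
mmu-miR-1904: gUUCUGCUccucuggagggagg
The 3 seeds differ from one another. The peaks of Mir148a ran from -1063 to 222438 bp, all between protein coding genes, while 6 of the 8 peaks of Mir1904 lay in the body of Pde4d, a cAMP phosphodiesterase. At least 12 peaks lay in the body of Pde4d, which was assigned none of them.

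Another 25 genes, with 219 peaks, belonged to none of these classes. Rnf220 encodes a ubiquitin ligase, and its 13 peaks (chr4:116944738-117170030) all lay in its 226 kb body, with 2 of them within 1 kb of its start sites. Ccnl1, a cyclin linked to splicing, had 10 peaks within 143 kb (chr3:65636316-65779357), 8 of them downstream of its 12.1 kb body. Rps24, a ribosomal protein, had 10 peaks over 318 kb (chr14:25309322-25627014). A peak of 1081 bp was at its TSS, and the other 9 ran downstream to 316758 bp. Hs3st3b1, a heparan sulphate sulphotransferase, had 10 (chr11:63346942-63739680), with 5 beyond 100 kb downstream and 2838 bp at the promoter. Btbd11 had 10 (chr10:84793500-85195177), with 7 in its body. Zfp608, on chromosome 18, had 10 from -559209 to 161690 bp, and none was within 1 kb of the TSS behind the deposited distances, although a peak of 1222 bp covered the annotated 5′ end of the gene.

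The remaining 19 genes had 8 or 9 peaks. With 9 they were 5730507C01Rik, Fam43a, Rpia and Trabd2b, and with 8 they were 4931429L15Rik, 4932435O22Rik, Acot11, Eef2kmt, Gm13090, Gmpr, Ier5, Ly86, Mgst2, Plpp3, Slc45a1, Tmem121, Tspan9, Tssc1 and Xylt1. All 9 peaks of Fam43a lay downstream of its TSS, up to 229831 bp. The 8 peaks of Gm13090 lay in introns of Camta1, a calmodulin-binding transcription activator, at chr4:150482087-150783793, and 5 of the 8 peaks of Mgst2 in introns of Maml3.

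**Figure D2:**
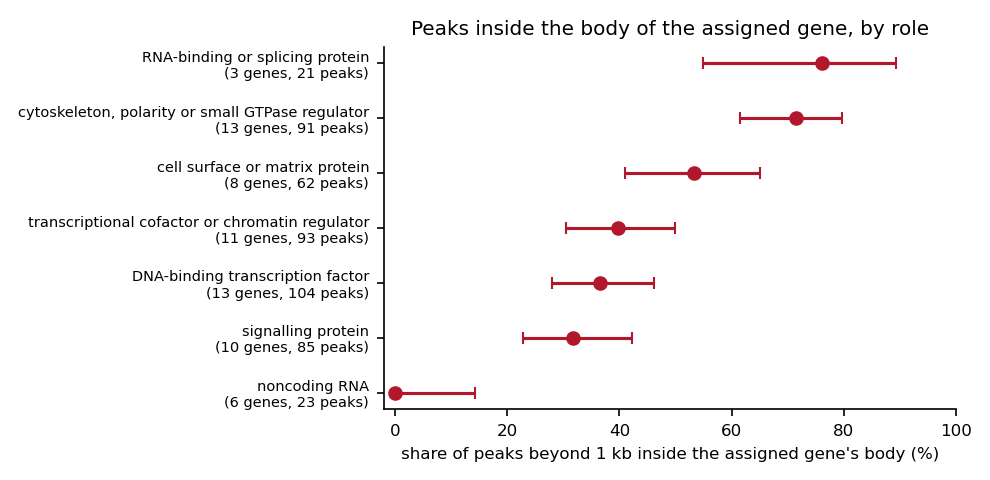
Share of peaks beyond 1 kb of the TSS whose midpoint lay inside the body of the assigned gene (horizontal axis, %), for 7 role classes with the number of genes and of peaks with a matched gene model. Points are shares and bars 95% Wilson intervals over peaks. The share was 71.4% for the cytoskeleton and polarity class and 36.5% for DNA-binding transcription factors.

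The plot by role sets these classes side by side. Inside the assigned gene's body were 65 of 91 peaks of the cytoskeleton and polarity class (71.4%, 95% Wilson interval 61.4 to 79.7%), 33 of 62 of surface and matrix proteins (53.2%, 41.0 to 65.1%) and 16 of 21 of RNA-binding proteins (76.2%, 54.9 to 89.4%). The share was 38 of 104 for DNA-binding transcription factors (36.5%, 27.9 to 46.1%), 37 of 93 for cofactors (39.8%, 30.4 to 49.9%) and 27 of 85 for signalling proteins (31.8%, 22.8 to 42.3%). Thus the cytoskeleton class had an interval above those of these 3 classes. Its genes were also long, with a median of 233 kb against 150 kb for transcription factors, 115 kb for cofactors and 68.0 kb for signalling proteins, and the part of gene length in the shares was not tested. The classes were drawn up with the gene names known, and peaks of a gene share a locus, so the intervals cover counting error over peaks only.

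Over the 795 peaks, distal positions prevailed. Only 87 peaks (10.9%, 95% Wilson interval 8.96 to 13.3%) lay within 1 kb of the assigned TSS and 61 (7.67%) at 1 to 10 kb. The shares were 29.1% at 10 to 50 kb, 22.9% at 50 to 100 kb and 29.4% (26.4 to 32.7%) beyond 100 kb. In total 647 peaks (81.4%, 78.5 to 83.9%) lay beyond 10 kb, against 54.9% (54.1 to 55.7%) of the 16102 peaks of genes with 2 to 7 peaks and 14.6% (13.9 to 15.3%) of the 9335 peaks of genes with 1 peak. The groups were formed by the number of peaks per gene. A peak within 1 kb was found at a similar part of their genes, 77.5, 75.9 and 73.8% in the same order. A higher peak number by itself then lowers the share of peaks near the TSS. The rule thus partly sets these shares, and they are given as a description.

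**Figure D3:**
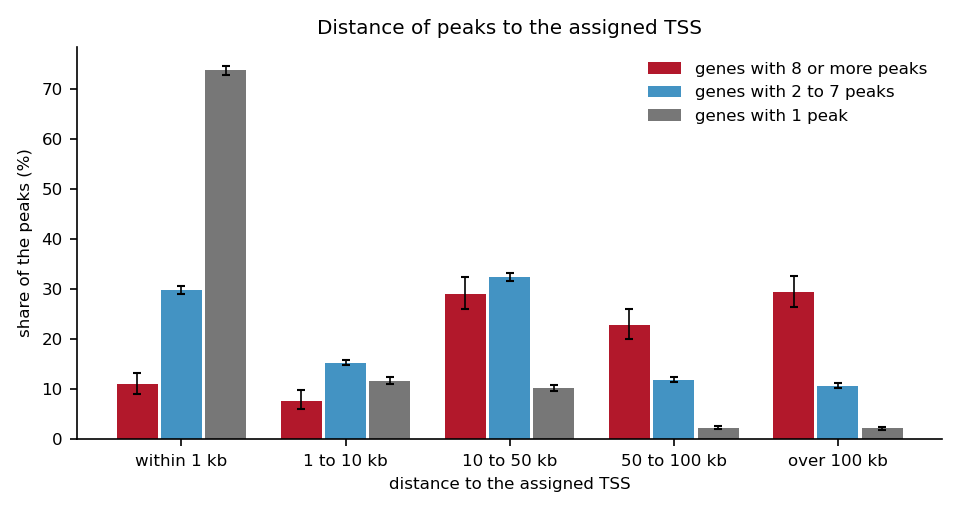
Share of peaks (%) in 5 classes of distance to the assigned TSS, for the 795 peaks of genes with 8 or more peaks (red), the 16102 of genes with 2 to 7 (blue) and the 9335 of genes with 1 (grey), with 95% Wilson intervals as error bars. Within 1 kb the bars stand at 10.9, 29.8 and 73.8%, and beyond 100 kb at 29.4, 10.7 and 2.16%. The groups were formed by peak number, which partly sets these shares.

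Position relative to the direction of transcription was uneven. Of the 708 peaks of these genes beyond 1 kb, 251 (35.5%, 32.02 to 39.05%) were upstream, against 44.7% (43.8 to 45.5%) of 13752 such peaks of all other genes. A peak in the body of a gene lies downstream of its 5′ end, and these genes were longer (median 104 against 22.9 kb). The part of gene length in the upstream share was not tested. For 12 of the 89 genes all peaks beyond 1 kb lay on 1 side. Of 681 peaks beyond 1 kb with a matched gene model, 276 (40.5%, 36.9 to 44.3%) lay in the body of the assigned gene, nearly all in introns (256 peaks, 37.6%), and 359 (52.7%) lay between protein coding genes. Another protein coding gene held 46 (6.75%, 5.10 to 8.89%), against 14.2% (13.6 to 14.8%) of peaks of the other genes, with intervals that did not overlap. Coding exons of the assigned gene held 5 peaks. Among the 767 peaks of matched genes, the nearest annotated TSS of any gene belonged to the assigned gene for 468, and the nearest TSS of a protein coding gene for 660.

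The genes differed widely among themselves. Most of the peaks beyond 1 kb lay in the own body for 33 of 86 genes, and for 19 genes none did. In 6 genes all such peaks were in the body. A peak beyond 100 kb was found in 67 of 89 genes (75.3%), against 8.72% of all 15351 genes with a peak and 55.7% of those with 7. A gene with more peaks has more that can lie far away, so this share is a description. The median span from the first to the last peak was 259 kb (95% confidence interval of the median 224 to 299 kb), with a range from 53.8 kb at Myo18a to 2269 kb at Cntnap2. The furthest peaks were assigned over 1111809 bp at 5730507C01Rik and 1060978 bp at 1700030C10Rik.

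Neighbouring peaks of a gene were a median of 21.2 kb apart at the median gene (21237 bp, 18585.5 to 26838.5 bp). The value was 19502 bp (18931 to 20260 bp) in genes with 2 to 7 peaks and 19060 bp (14026.5 to 31231 bp) in those with 7. These intervals overlapped. Gaps of at most 10 kb made up 190 of 706, and 79 of 89 genes had at least 1. A gene with more peaks has more gaps that can be short, so these counts are a description. The most peaks within 50 kb were 7, at Myo18a, followed by 6 at 8 genes, among them Med13l, Rnf220, Ccnl1, Ywhaz, Calm2, Cxxc5 and Zmynd8. Some of the genes adjoin. In 7 pairs the peaks of neighbouring genes of the set were at most 1 Mb apart, and the closest pair was Maml3 and Foxo1 with 33435 bp.

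Compared with all other genes with a peak, the genes were long and lay in wide stretches with few other start sites. Median gene length was 104 kb (63.7 to 148 kb, n = 86) against 22.9 kb (22.3 to 23.5 kb) in 14310 other genes with a peak. Territory, the stretch of genome nearer to a TSS of the gene than to that of any other annotated gene, had a median of 164 kb (142 to 209 kb) against 41.1 kb (40.2 to 42.0 kb). Density, the peaks assigned to a gene divided by its territory, had a median of 54.2 per Mb (39.0 to 64.3) against 34.8 (34.2 to 35.6). It is a description only, since the number of peaks chose the genes. Assigned peaks outside the territory were counted too. The nearest annotated TSS of any gene was of the assigned gene for 468 of 767 peaks. With start sites of protein coding genes alone, the densities were 28.0 per Mb (21.2 to 37.0) and 25.5 (24.9 to 26.3), and the intervals overlapped. Assignment to the nearest TSS gives a gene with a wide territory more sequence in which a peak can be counted, and how much of the peak number this accounts for was not tested. Of the 86 genes, 45 were at least 100 kb long and 18 under 20 kb, so short genes such as Irx3, Rps24, Sik1 and Ccnl1 were in the set too.

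Counting each peak for the shortest protein coding gene body that holds its midpoint gave another order of genes. Msi2 held 17 peaks in its body and was assigned 3, Camta1 held 13 and was assigned 5, and Maml3 held 13 and was assigned 9. Rnf220 held and was assigned 13. Tead1 held 10 and was assigned 14. The predicted gene model Gm20388 is 4435 kb long and held 77 peaks, among them the 8 of Irf8 and 5 of Gse1. These genes were looked up after the peak positions had been seen.

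At the promoter, 69 of 89 genes (77.5%, 67.8 to 85.0%) had a peak within 1 kb of the assigned TSS, against 74.6% (73.9 to 75.3%) of 15262 other genes, with overlapping intervals. The 20 genes without such a peak included Maml3 and Cxxc5. This count depends on the TSS used. Of the 681 peaks beyond 1 kb with a matched gene model, 31 lay within 1 kb of an annotated TSS of the same gene, and 7 of the 20 genes (Casz1, Ntm, Tns3, Ywhaz, Zfp423, Zfp608 and Zmynd8) had a peak within 1 kb of an annotated TSS. Where there was a promoter peak, the width of the widest had a median of 1705 bp (1463 to 2118 bp) against 1333 bp (1323 to 1344 bp). Promoter peaks over 2000 bp were found at 29 of 69 genes (42.0%, 31.1 to 53.8%) against 13.4% (12.8 to 14.1%). The widest was taken over 2 or more promoter peaks at 14 of 89 genes (15.7%) and at 1.83% of other genes, and per peak the medians were 1544 and 1325 bp. In genes with 7 peaks the share was 12 of 46 (26.1%, 15.6 to 40.3%), which overlapped that of the 89 genes. After Tle3 and Gse1 the widest promoter peaks were those of Efnb2 (3854 bp) and Smad6 (3635 bp).

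Among distal peaks beyond 10 kb the median width was 956 bp (921 to 983 bp, n = 647) against 876 bp (870 to 883 bp, n = 10201) in other genes. For genes with 10 or more peaks it was 919.5 bp (867 to 965 bp, n = 174), an interval that overlapped that of other genes. In each of the classes from 10 kb outwards the intervals did not overlap, with 997 against 910 bp at 10 to 50 kb, 995 against 866 bp at 50 to 100 kb and 881.5 against 798 bp beyond 100 kb. Peaks over 2000 bp made up 29 of 647 (4.48%, 3.14 to 6.36%) against 233 of 10201 (2.28%, 2.01 to 2.59%). The widest distal peaks were those of Cxxc5 (4147 bp), Rybp (4085 bp) and then another of Cxxc5 (3299 bp). The widest peak of the gene was the promoter peak in 35 of 89 genes. An interval carries the coordinates of 1 replicate, so its width depends on the caller and on the depth, and the error between replicates is unknown.

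**Figure D4:**
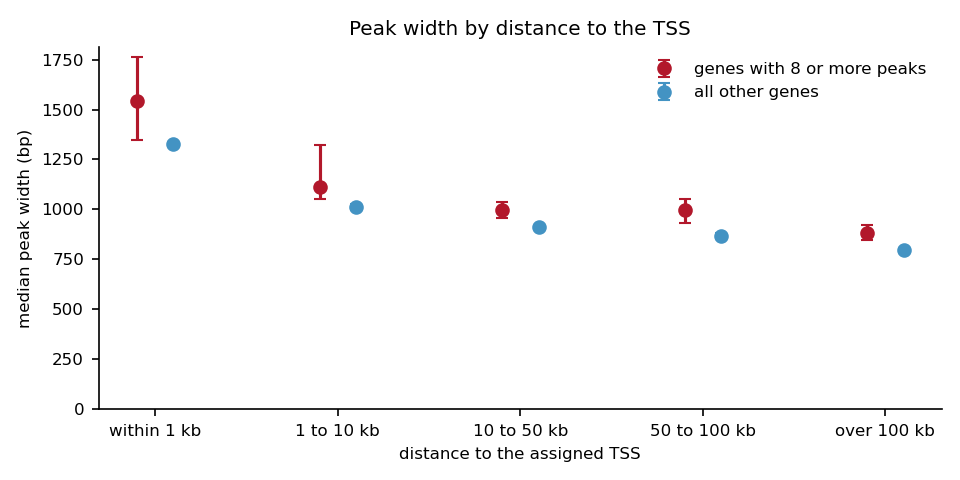
Median peak width (bp) in 5 classes of distance to the assigned TSS, for genes with 8 or more peaks (red) and all other genes (blue), with 95% confidence intervals of the median (those of the blue points are mostly hidden by the symbol). The red point is above the blue in all 5 classes, at 1544 against 1325 bp within 1 kb and 881.5 against 798 bp beyond 100 kb.

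Pooled over all peaks beyond 10 kb, base composition was close to that of other genes. In the central 300 bp of peaks beyond 10 kb the median GC content was 54.3% (54.0 to 55.0%) against 53.7% (53.3 to 53.7%), a difference of under 1 percentage point. These intervals did not overlap. Beyond 100 kb GC content was 54.0% (53.0 to 54.7%) against 52.0% (51.7 to 52.3%), also without overlap. At 10 to 50 kb (55.0 against 54.3%) and 50 to 100 kb (54.2 against 53.3%) the intervals met or overlapped. Over all peaks beyond 10 kb the CpG ratio observed over expected was 0.225 (0.202 to 0.238) against 0.226 (0.221 to 0.232). At promoters it was 0.839 against 0.812, and GC content was 67.7% against 66.7%.

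To describe which factors could recognise these peaks, 15 short motifs were searched on both strands of the central 300 bp. None contains another, but matches can adjoin or share bases. Over all 10848 peaks beyond 10 kb in the list, the shares that held each motif were 27.1% for TALE (TGACAG), 25.1% for the E-box CAGCTG, 23.4% for the E-box CATCTG, 23.2% for TEAD (GGAATG), 21.98% for SOX (ACAAAG), 19.1% for SP/KLF (GGGCGG) and 15.9% for the GATA motif (AGATAA). They were 10.3% for the Isl1-type homeodomain motif (CTAATG), 10.1% for AP-1 (TGANTCA), 5.17% for the homeodomain motif (TAATTA), 3.22% for the E-box CATATG, 2.62% for Nkx2-5 (TTAAGTG), 1.75% for T-box (AGGTGTGA), 1.61% for the CTCF core and 0.286% for MEF2. Such short words occur often in any sequence, and a match is not a bound site.

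Of the 647 distal peaks of the 89 genes, 585 (90.4%, 87.9 to 92.5%) held at least 1 of these motifs, against 8814 of 10201 in other genes (86.4%, 85.7 to 87.1%). For 14 of the 15 motifs the share overlapped that in the 10201 distal peaks of other genes. The exception was MEF2, with 7 peaks (1.08%, 0.525 to 2.22%) against 24 (0.235%, 0.158 to 0.350%). These are the 7 peaks printed above, of Foxp1, Kazn, Mir148a, Podxl, Prickle1, Rgs3 and Tssc1. The intervals were not adjusted for the number of motifs, the count is small, and no motif was separated when genes with 7 peaks were added to the set.

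Windows 3000 bp to either side of the peaks gave the background of the same loci. They were not matched to the peaks in base composition, and its part in the differences was not tested. TEAD was found in 24.6% of the 647 peaks (21.4 to 28.0%) and 16.5% of 1274 flank windows (14.5 to 18.6%), TALE in 28.4 against 20.3%, the E-box CAGCTG in 26.4 against 14.0%, SP/KLF in 18.4 against 3.61% and the CTCF core in 1.39 against 0.235%. The E-box CATATG was lower in peaks, at 3.25 against 7.06%. The intervals of the other 9 motifs overlapped between peaks and flanks, with GATA at 14.2 against 16.1% and the Isl1-type motif at 12.2 against 10.0%. MEF2 was among these 9, at 1.08% (0.525 to 2.22%) against 0.314% (0.122 to 0.805%).

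**Figure D5:**
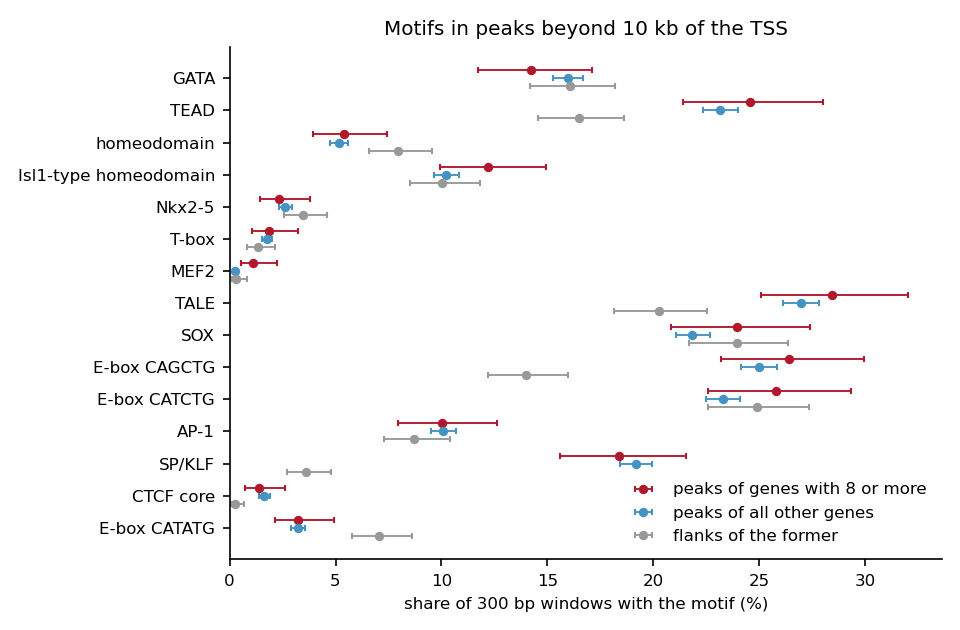
Share of 300 bp windows (%) that held each of 15 motifs, for the 647 peaks beyond 10 kb of genes with 8 or more peaks (red), the 10201 such peaks of all other genes (blue) and 1274 windows flanking the red ones (grey), with 95% Wilson intervals. Red and blue intervals overlap for every motif but MEF2 (1.08 against 0.235%), and red lies above grey without overlap for TEAD, TALE, the E-box CAGCTG, SP/KLF and the CTCF core. The flanks were not matched in base composition.

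Single genes stood out for single motifs. The TEAD motif was found in 10 of 14 peaks of Tead1 (71.4%, 45.4 to 88.3%), 8 of them among the 12 peaks beyond 10 kb. The next gene by count was Zmynd8 with 5 of 9. Only 19 genes in the list had 10 or more peaks, so few could reach the count of Tead1. Among all other peaks the share was 16.5% (16.0 to 16.9%, n = 26218), and among the other distal peaks of the 89 genes 23.8% (20.6 to 27.2%, n = 635). The matches printed at the opening show the motif in both orientations, 2 of them reading GGAATG on the plus strand, and the peak over the TSS holding 2 copies. This motif was singled out after the counts of all genes had been seen.

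By number of peaks, SOX was highest at Zfp608 (7 of 10 peaks), the E-box CAGCTG at Rgs3 (7 of 14), the E-box CATCTG at 9430078K24Rik (7 of 11), AP-1 at Btbd11 (5 of 10), GATA at Rybp (4 of 10) and the homeodomain motif at Rpia (4 of 9). By share, the E-box CAGCTG was highest at Tle3 (5 of 8, 62.5%) and the E-box CATCTG at Hunk (6 of 9, 66.7%), and counts favour genes with more peaks. The median gene of the set held the TEAD motif in 2 peaks and GATA in 1, and 31 of 89 genes held GATA in none. With 15 motifs and 89 genes, the highest counts are a description.

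Near the TSS the set was small. Among 87 peaks within 1 kb, 5 of 15 motifs had shares apart from those in 11685 promoter peaks of other genes. The E-box CAGCTG was in 23 peaks (26.4%, 18.3 to 36.6%, against 17.0%) and the E-box CATCTG in 15 (17.2%, 10.7 to 26.5%, against 9.23%). The homeodomain motif was in 4 (4.60%, 1.80 to 11.2%, against 0.924%) and Nkx2-5 in 3 (3.45%, 1.18 to 9.65%, against 0.958%). MEF2 was in only 1 (1.15%, 0.203 to 6.23%, against 0.0856%). This comparison was not repeated under other settings.

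Some of the peaks consist of repeated sequence, where reads can be placed at more than 1 site. Of the 795 peaks, 34 (4.28%, 3.08 to 5.92%) had at least 50% of their sampled 32-base words at several places in the genome, against 3.85% (3.62 to 4.09%) in other genes. At 1700030C10Rik 8 of 9 peaks were of this kind, at 5730507C01Rik 7 of 9, at Rpia 3 of 9, and at Hpcal1 and Hs3st3b1 2 each. Hpcal1, 5730507C01Rik and 1700030C10Rik are neighbours on chromosome 12, and the peak number of 1700030C10Rik and 5730507C01Rik rests mostly on repeated sequence. A run of 60 bases, printed because it occurred in 5 of the 17 repeated peaks there, had 14 copies on the assembled chromosomes.
chromosome 12 run: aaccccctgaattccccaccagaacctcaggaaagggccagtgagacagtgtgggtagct
Without the repeated peaks 80 of the 89 genes kept 8 or more peaks. The genes lost were 1700030C10Rik, 4931429L15Rik, 5730507C01Rik, Gm13090, Gmpr, Hpcal1, Rpia, Slc45a1 and Tmem121.

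Finally, the set was compared with 17 lists of genes of known function. Of 334 listed genes 15 were in the set, which was 5.14% of the 292 with a peak, against 0.580% of all genes with a peak. The corepressor and chromatin list had 4 of 21, among them Med13l, Arid1b and Tle3, the forkhead list 2 of 21 (Foxo1 and Foxp1), and the lists of cardiac regulators (Isl1), Hippo pathway (Tead1), TALE genes (Pknox2), BMP and TGF-beta pathway (Smad6), Notch pathway (Maml3), actin cytoskeleton (Tns3), RGS genes (Rgs3), pluripotency (Klf4) and ribosomal proteins (Rps24) 1 each. No gene of the SOX, nuclear receptor, Wnt, FGF, sarcomere or liver lists reached 8 peaks. The lists were drawn up with results of this peak list known, so these counts describe the lists and support nothing further.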

How the data were processed

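ATAC-Seq libraries of 2 replicate samples of CPCs at day 5 were analysed as 1 group. According to the study's methods, the authors mapped reads to mm9 with Bowtie2, removed improperly paired and secondary reads with SAMtools and duplicates with Picard (version 1.136 per the submitters' processing notes), called peaks with MACS14 without a model and with a fixed shift, and removed blacklisted regions. With bedtools they retained intervals that shared 1 bp or more between replicates (version 2.15 per the same notes). No correction for the Tn5 offset is described in the sources used here. The deposited list gives coordinates in bp, the gene with the nearest TSS, its accession and the distance in bp. It has no score, signal or count, so depth and replicate error could not be given. Assignment with HOMER is stated for ChIP-Seq only.

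Intervals were made unique by coordinates and counted per symbol. GENCODE vM1 on NCBIM37, the assembly of mm9, gave gene bodies and TSSs for 86 of the 89 genes. Shares carry 95% Wilson intervals and medians 95% intervals from binomial order statistics. They cover counting error over peaks or genes only, were not adjusted for multiple comparisons, and no test was run. Words of 32 bases were sampled every 16 bp to find repeated sequence. Named were all genes with 10 or more peaks with positions, those with 8 or 9 by name (with positions where a gene list held them or a measure was highest or lowest), Isl1 and the cardiac regulators, and genes with 7 peaks by number only. Some genes of the set are not reported by name here. Positions of other genes, motifs of single genes and host genes were added after their values were seen. The members and lists were chosen with earlier results of these data known. Scripts used Python 3.11.15, numpy 2.4.6, scipy 1.17.1, pysam 0.24.0 and matplotlib 3.10.9 and were tested on simulated data, where 12 of 12 checks gave the known answer.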

Additional observations from a re-analysis of the deposited data

How the results depend on the processing

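No paired analysis was possible because the list holds 1 set of intervals for both replicates, and for the same reason no replicate could be left out. Of 148 alternative values, 25 main summaries and 65 further values stayed within the 95% interval or within 1.5 times the count, and 19 and 39 moved. Some settings changed the set itself. The number of genes was 2 with peaks wider than the median of all peaks. It was 152 when peaks were assigned to the nearest protein coding TSS of GENCODE (64 of the 89 among them). It was 39 (18 of the 89 among them) when each peak was counted only for the shortest protein coding gene body that holds its midpoint. Longer bodies that overlap a shorter one lose peaks in that count. With 10 or more peaks per gene, the share beyond 10 kb was 84.1%, the median distal width 919.5 bp (867 to 965 bp, overlapping the interval of other genes), the share in the own body 45.3%, peaks per Mb of territory 76.3, the median gap 17404 bp, 2 motifs (SP/KLF and the CTCF core) were apart from other genes and 4 listed genes were in the set. With 7 or more, no motif was apart (0 of 15), and 27 listed genes were in the set. The share beyond 10 kb was 70.6% for peaks wider than the median and 65.3% by the nearest GENCODE TSS of any gene. With protein coding TSSs only, median territory was 314 kb and density 28.0 per Mb. Over whole intervals median GC content was 51.8% and 3 motifs (Isl1-type homeodomain, MEF2 and the E-box CAGCTG) were apart. A promoter peak within 500 bp was found at 66.3% of genes. The body count, the density by protein coding TSSs, the removal of repeated peaks and the count of promoter peaks by annotated TSS were chosen after seeing the data. The cause of these shifts was not tested.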
